A study of Solanum lycopersicum with 6 samples.

Results

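Chromosomes 10 and 12 of tomato carry 10905 of the 80696 peaks of open chromatin in the deposited list, 5493 on chromosome 10 and 5412 on chromosome 12. They were chosen by their peak density, the lowest of the 12 chromosomes, so that low density is a description here and not a finding. Over the span from the first base to the end of the last peak, chromosome 12 had 81.2 peaks per Mb (95% exact Poisson interval 79.0 to 83.3) and chromosome 10 had 84.8 (82.6 to 87.1). The next chromosome above them was chromosome 5, with 89.0 (86.7 to 91.3). Both chromosomes together made up 17.02% of the span of the 12 chromosomes and held 13.6% of their peaks.

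The peaks come from ATAC-seq of inflorescences of the anantha-e1546 mutant in the M82 background, grown under 16 h of light and 8 h of darkness, with 6 replicates that form 1 group and no control group. anantha plants are known to keep forming inflorescence meristems in place of flowers, and the whole inflorescences served as tissue rich in meristems, not as isolated meristems. The authors deposited 1 list for all 6 replicates. No value per replicate, no replicate error and no sequencing depth can be had from it, so nothing below is tested, and values for the other 10 chromosomes give the scale of each difference. The intervals given reflect the counting of peaks alone, and adjacent peaks may share a source.

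In ATAC-seq a transposase cuts DNA that is free of nucleosomes, and stretches with many cuts are called as peaks. Such stretches often lie at promoters and other regulatory DNA of active genes. Tomato chromosomes are known for gene-rich euchromatin in the outer arms and for long blocks of repeat-rich, gene-poor heterochromatin around the centromere, where meiotic recombination is rare. Positions of genes and repeats of the build used by the list, SL4.0, were not used here, so peaks are described by position, width, spacing and strength alone.

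Both chromosomes had short arms dense with peaks and a sparse interior of 50 Mb. Peaks were counted in bins of 1 Mb, and the interior is the stretch of bins that falls furthest short, in sum, of the mean count over all 12 chromosomes. Its sparseness is thus built into it. On chromosome 10 it lay from 5000001 to 55000000 and on chromosome 12 from 7000001 to 57000000. That left arms of 5 Mb and 9.79 Mb on chromosome 10, and of 7 Mb and 9.69 Mb on chromosome 12. Chromosome 10 thus had the shortest total arm length of the 12 chromosomes, 14.8 Mb, and chromosome 12 had 16.7 Mb. The other 10 had between 16.3 Mb on chromosome 5 and 29.8 Mb on chromosome 1, with a median of 21.3 Mb. The interior took up 77.2% of the span of chromosome 10 and 74.98% of that of chromosome 12, against 65.4% ± 8.08 on the others (SD, n = 10 chromosomes). Chromosome 5, with 75.08%, lay between them.

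The arms themselves were not poor in peaks. Chromosome 10 had 256.6 peaks per Mb in its arms (248.5 to 264.9) and chromosome 12 had 249.8 (242.3 to 257.5). The other 10 chromosomes ran from 237.7 to 291.0 with a median of 262.3, so that both values lay inside that range, at ranks 5 and 3 from the lowest of the 12. Peaks covered 26.3% of the arm sequence on chromosome 10 and 25.6% on chromosome 12, against a median of 25.6% on the others. Within chromosome 12 the first arm as cut here was denser than the last, with 267.0 (255.0 to 279.4) against 237.4 (227.8 to 247.3) peaks per Mb. This contrast depends on where the interior was cut, since the last arm takes in adjoining bins with 152, 162, 159 and 164 peaks. Its bins further out had from 252 to 329 peaks per Mb, and the bins of the first arm from 120 to 344. On chromosome 10 the intervals of the first arm, at 248.8 (235.2 to 263.0), and the last arm, at 260.6 (250.6 to 270.9), overlapped. With peaks no more than 100 bp apart merged, the interior of chromosome 10 widened and its remaining arms, with 227.2 peaks per Mb, ranked 12 from the lowest.

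The interiors of the 2 chromosomes differed from each other. The interior of chromosome 10 held 1699 peaks, or 33.98 per Mb (32.4 to 35.6), the third highest of the 12 interiors. That of chromosome 12, of the same length, held 1243, or 24.9 per Mb (23.5 to 26.3), and only chromosome 4 had a lower value, 24.8. The interiors of the other 10 chromosomes had 30.1 ± 3.64 peaks per Mb (SD, n = 10 chromosomes). Of all peaks of chromosome 10, 30.9% lay in the interior, more than on any other chromosome. The share was 23.0% on chromosome 12 and ran from 12.4% to 25.5% on the other 10.

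Exchanging single terms gives how far each moves the density of the whole chromosome under this split into arms and interior. With its own densities but the pooled interior share of the other 10 chromosomes, 66.0%, chromosome 10 would have had 109.7 peaks per Mb and chromosome 12 would have had 101.4, against 108.0 observed over the others. With the pooled arm density of the others, 260.2 per Mb, the values were 85.6 and 83.8. With their pooled interior density, 29.5 per Mb, the values were 81.4 for chromosome 10 and 84.7 for chromosome 12. The share of the span taken by the interior moved the density of both chromosomes more than the density of either part did. These are sums over the measured values and not tests, and the interior is itself set by the peak counts. The chromosomes were chosen for low density, and every interior was cut against the same mean count. Such a cut can draw the part densities of chromosomes together, so the larger effect of the share may be partly built in.

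**Figure D1:**
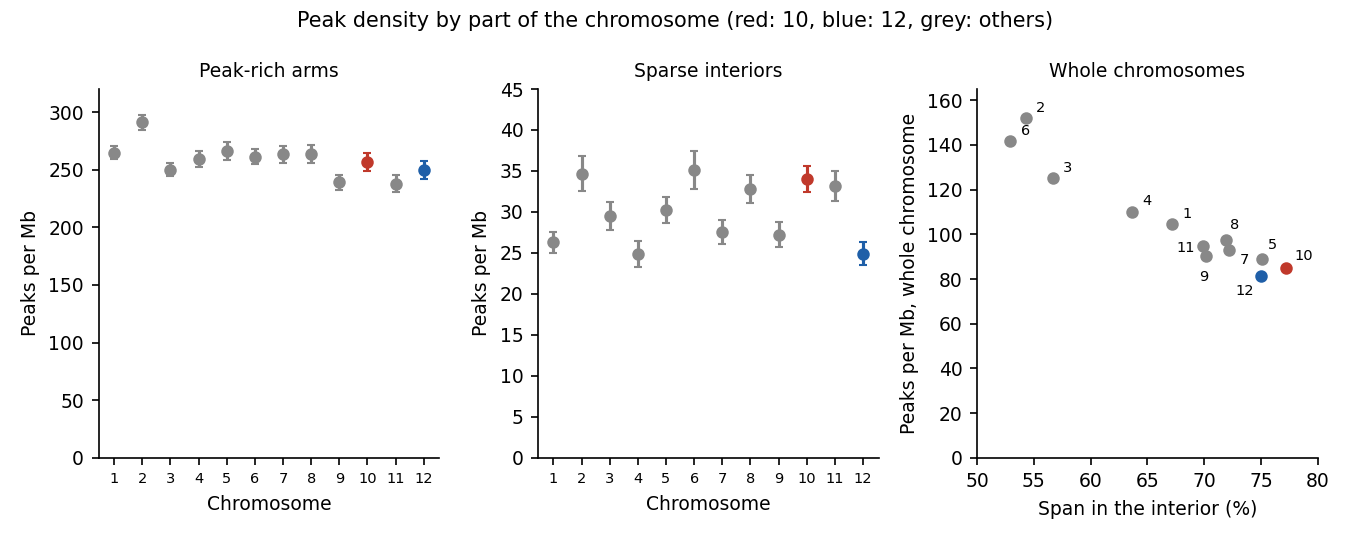
Peaks per Mb in the arms (left) and the interiors (middle) of each chromosome, with 95% exact Poisson intervals, and peaks per Mb of the whole chromosome against the percent of its span in the interior (right). The arms of chromosomes 10 and 12 lie within the range of the others, their interiors differ (33.98 and 24.9 peaks per Mb), and both combine a large interior share (77.2% and 74.98%) with a low density.

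From the ends inward, density stayed high for a few Mb and then dropped. On chromosome 10 the first 4 bins of 1 Mb held 276, 284, 337 and 243 peaks, the last bin of the first arm 104 and the first bin of the interior 88. At the other edge the last interior bin held 82 peaks, and the next bins outward held 107, 109, 222, 200 and 311. The densest bins of this chromosome were those from 61000001 to 62000000 and from 62000001 to 63000000, with 368 and 367 peaks. Chromosome 12 began with 4 bins that held 344, 320, 317 and 309 peaks, while the last bin of its first arm held 120 and the first interior bin 65. At the other edge of chromosome 12 the count rose from 42 to 152 between adjoining bins and then stayed at 162, 159 and 164 before it reached 252 and 313. The last arm of chromosome 12 thus began with a shelf of 4 Mb at intermediate density.

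**Figure D2:**
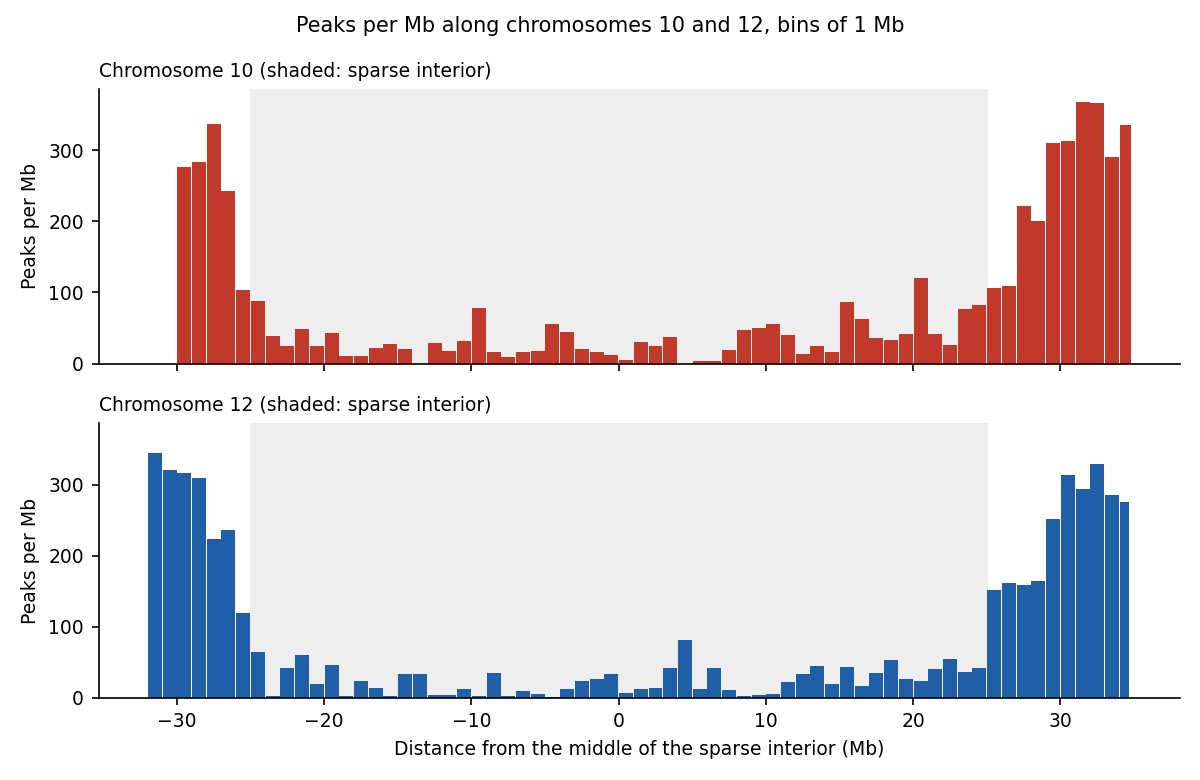
Peaks per Mb in bins of 1 Mb along chromosome 10 (top) and chromosome 12 (bottom), by distance from the middle of the sparse interior in Mb, with the interior shaded. Bins toward the ends reach 368 peaks per Mb on chromosome 10 and 344 on chromosome 12, the arm bin at each edge of the interior holds 104 to 152, the interior of chromosome 10 reaches 120 in its highest bin and that of chromosome 12 reaches 82.

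Interior bins were uneven on both chromosomes. The median was 26.5 peaks per bin on chromosome 10 (quartiles 16 and 44.5, highest 120) and 22.5 on chromosome 12 (quartiles 7.5 and 39, highest 82). No more than 5 peaks were present in 5 of 50 bins of chromosome 10 and in 11 of 50 bins of chromosome 12. At least 50 peaks were present in 10 and 5 bins. The highest interior bin of chromosome 12 was the lowest such maximum of the 12 chromosomes, with 84 to 130 on the 10 chromosomes other than these. The variance of the bin counts was 19.7 times their mean on chromosome 10 and 15.2 times on chromosome 12, with a range of 13.3 to 40.9 on the other 10.

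Deep inside the interior, at least 5 Mb from an edge, the richest bins of chromosome 10 were those from 45000001 to 46000000 with 87 peaks, from 20000001 to 21000000 with 78, and from 46000001 to 47000000 with 63. The bin from 20000001 stood between neighbours with 32 and 16 peaks, and its peaks had a median width of 819 bp and a median −log10 q of 2.64. On chromosome 12 the richest were the bins from 36000001 to 37000000 with 82 peaks, from 50000001 to 51000000 with 53, and from 12000001 to 13000000 with 46. That from 36000001 stood between bins with 42 and 13 peaks, and peaks covered 11.9% of it. No peak at all was called in the bins of chromosome 10 from 16000001 to 17000000 and from 34000001 to 35000000. Chromosome 12 had no empty bin, and its poorest, from 27000001 to 28000000, held 1 peak.

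Density declined from the edges of the interior toward its middle, unevenly on chromosome 12. On chromosome 10 the outermost 5 Mb at both edges had 57.1 peaks per Mb (52.5 to 62.0), the next 5 Mb 37.5 (33.8 to 41.5), and the 3 bands further in 24.9, 25.9 and 24.5. On chromosome 12 the same bands had 38.5 (34.7 to 42.5), 26.2, 21.3, 12.7 (10.6 to 15.1) and 25.6 (22.6 to 28.9). Between the 2 chromosomes the intervals overlapped in the innermost band and at 10 to 15 Mb from an edge, and were apart in the other 3 bands. The innermost band of chromosome 12 drew 124 of its 256 peaks from the 2 bins between 35 and 37 Mb. Without them it had 16.5 peaks per Mb (13.8 to 19.6), and its interval lay below that of chromosome 10, from 21.5 to 27.8. These 2 bins were chosen after their counts were seen. The intervals hold counting error alone, while the variance of interior bin counts was 19.7 and 15.2 times their mean. Intervals that lie apart therefore do not show that bands differ by more than bins do. On both chromosomes the 25 Mb nearer the last arm were denser than the 25 Mb nearer the first arm, with 39.1 against 28.9 peaks per Mb on chromosome 10 and 29.0 against 20.7 on chromosome 12, or 26.2 (24.1 to 28.35) against 20.7 without those 2 bins.

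Over whole interiors, median peak width hardly differed from that of the arms. The median width was 713 bp in the arms (95% binomial interval 693 to 734) and 721 bp in the interior (689 to 752) of chromosome 10. For chromosome 12 it was 715 bp (695 to 731) and 683 bp (649 to 720). Arm minus interior was thus -8 bp on chromosome 10 and 32 bp on chromosome 12, both inside the range of -55 to 51.5 bp of the other 10 chromosomes. The first of these changed sign to 7.5 bp once peaks with a q above 0.01 were left out and to 51.5 bp when peaks within 100 bp were merged, which also raised the second to 135.5 bp. Quartiles were also close, at 448 and 1224.5 bp in the arms and 457 and 1166 bp in the interior of chromosome 10. Peaks over 2 kb made up 10.4% of arm and 9.54% of interior peaks on chromosome 10, and 10.99% and 9.41% on chromosome 12. Peaks of 250 bp or less made up 4.45% and 3.47% on chromosome 10, and 4.53% and 3.46% on chromosome 12. By band, the part of the chromosome 10 interior 20 to 25 Mb from an edge had a median width of 826 bp (739 to 955). That interval lay above the interval of the arms. Its other bands ran from 640 to 777 bp and those of chromosome 12 from 650 to 759 bp, all with intervals that overlapped those of the arms. With the middle of 3 equal stretches as interior, arm minus interior was -70 bp on chromosome 10 and 24 bp on chromosome 12.

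Peak strength, given by the authors' −log10 q, was lower in the interiors. In the arms of chromosome 10 the median was 3.53 (3.42 to 3.68) and in its interior 3.11 (2.98 to 3.24). For chromosome 12 it was 3.38 (3.29 to 3.50) and 2.99 (2.86 to 3.13). Arm minus interior came to 0.42 and 0.39, inside the range of 0.19 to 0.83 of the other 10. After merging of peaks within 100 bp the differences were 0.72 and 0.80, and without the 5 Mb at each interior edge that of chromosome 10 was 0.65. The arm median of chromosome 12 was the lowest of the 12 chromosomes, below the range of 3.50 to 3.74 of the other 10. Over the whole chromosome, chromosomes 12 and 10 had the lowest medians of all, 3.26 and 3.36, against 3.42 to 3.67 on the others. These values depend in part on the share of peaks in the interior, where the median was lower on all 12 chromosomes. That share was 30.9% on chromosome 10, the highest, and 23.0% on chromosome 12. On chromosome 10 the arm median ranked 3 from the lowest and the interior median 5. Among the arms of chromosome 10 the first had a lower median, 3.29 (3.11 to 3.48), than the last, 3.68 (3.52 to 3.80), whereas those of chromosome 12 were close, at 3.44 (3.23 to 3.62) and 3.36 (3.23 to 3.49).

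**Figure D3:**
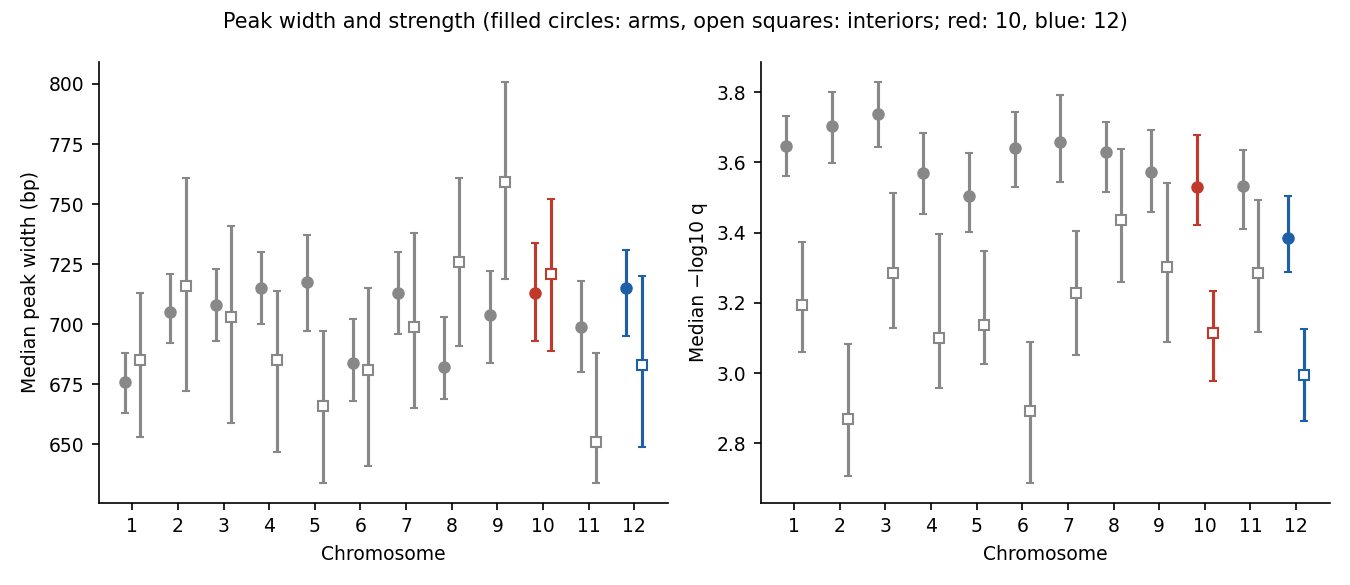
Median peak width in bp (left) and median −log10 q (right) in the arms (filled circles) and interiors (open squares) of each chromosome, with 95% binomial intervals of the median. Width intervals of arms and interiors overlap on chromosomes 10 and 12, whereas interior peaks had the lower median −log10 q (3.11 against 3.53 and 2.99 against 3.38).

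The strongest peaks divided the 2 interiors further. A −log10 q of 10 or more was carried by 218 interior peaks of chromosome 10, or 12.8% of them, and by 109 of chromosome 12, or 8.77%. The other 10 interiors ran from 10.6% to 14.6%, so that chromosome 12 lay below all of them. In the arms the shares were 11.3% and 10.9%. Peaks with a −log10 q of 10 or more numbered 4.36 per Mb in the interior of chromosome 10 and 2.18 in that of chromosome 12, while those with a −log10 q under 2 numbered 6.90 and 6.02 per Mb. The 2 interiors thus differed more in the strongest class than in the weakest, but the difference did not rise steadily with strength. Peaks with a −log10 q from 2 to 3 numbered 9.50 and 6.44 per Mb. Those from 3 to 6 numbered 8.80 and 6.74, and those from 6 to 10 numbered 4.42 and 3.48. A q above 0.01 was carried by 20.3% of interior peaks of chromosome 10 and by 24.2% of those of chromosome 12, against 16.5% and 17.9% in their arms.

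The peak score of the list is a whole number capped at 1000. The cap was reached by 62.0% of arm and 55.6% of interior peaks on chromosome 10, and by 59.9% and 53.7% on chromosome 12. The lower quartile of the score was 783 in the arms and 721 in the interior of chromosome 10, and 754 and 679 on chromosome 12. Among peaks below the cap the median score was the same in both parts of chromosome 10, 690, and was 679 in the arms and 646 in the interior of chromosome 12. On chromosome 10 the share at the cap was highest in the 5 Mb next to an interior edge, with 64.1%, and fell to 48.6% at 10 to 15 Mb from an edge. The median −log10 q there was 3.51 (3.29 to 3.81) and 2.81 (2.54 to 3.01). In the 5 Mb next to an edge, the strength of interior peaks of chromosome 10 was therefore within the interval of its arms. Over the 5 bands of chromosome 12 the median −log10 q ran from 2.79 to 3.18, with intervals that all overlapped.

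Individual interior peaks were as strong as those of the arms. On chromosome 10 the strongest interior peak lay at 45432811 to 45437231, with a −log10 q of 22.1 and a width of 4421 bp, followed by 10581420 to 10588611 with 22.0 and 49340769 to 49342823 with 21.9. The strongest arm peak of that chromosome, at 60421197 to 60429458, had 22.5. The interior of chromosome 12 had its strongest peaks from 54135805 to 54137382 (20.9), from 56733011 to 56736662 (20.6) and from 43967743 to 43971833 (19.9). Its strongest arm peak spanned 364520 to 366199, in the first Mb of the chromosome, and had 20.99. These maxima of 22.5 and 20.99 were the lowest of the 12 chromosomes, the others having between 23.05 and 25.07.

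From a −log10 q of 2 upward, median width rose from each class of strength to the next in both parts. In the arms of chromosome 10 the median width was 476 bp for a −log10 q from 2 to 3, 697 bp from 3 to 6, 1183 bp from 6 to 10 and 2136 bp from 10 upward. In its interior the values were 516, 691, 1071 and 1736 bp. The strongest class was narrower in the interior, with intervals of 1609 to 1941 bp against 1948 to 2337 bp in the arms. The strongest class of chromosome 12 had 2047.5 bp (1890 to 2163) in the arms and 1820 bp (1578 to 2071) in the interior, where the intervals overlapped. Over the other 10 chromosomes these values were 1899 bp (1863 to 1934) and 1775 bp (1709 to 1836). The weakest class, with a −log10 q under 2, broke this order, since its median widths of 523 to 560 bp in arms and interiors of both chromosomes were each above that of the class from 2 to 3. Among listed peaks below the score cap, score times width over 1000 was never under 200.2, so the lowest scores occurred only in wider peaks. Whether this bears on the width of the weakest class was not tested.

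Wide peaks in the interior of chromosome 12 departed from this relation. Of its 18 interior peaks of 5 kb or more, 14 (77.8%, 95% exact binomial interval 52.4% to 93.6%) had a −log10 q under 6. None of 16 did so in the interior of chromosome 10, where a count of 0 allows up to 20.6%, and 6 of 97 (6.19%) did so in the interiors of the other 10 chromosomes. In the arms the counts were 0 of 34 on chromosome 10, 1 of 43 on chromosome 12 and 22 of 469 on the others. The median −log10 q of these wide peaks was 4.45 in the interior of chromosome 12, against 15.5 in that of chromosome 10, 14.3 in the arms of chromosome 12 and 15.2 in the other interiors. The limits of 5 kb and 6 were set after the values were seen. The binomial intervals count each peak as independent, although several of the 14 lay side by side, so they may be too narrow. With peaks of 3 kb or more, 24 of 54 interior peaks of chromosome 12 were weak (44.4%), against 7 of 60 on chromosome 10 and 52 of 427 on the others. With peaks within 100 bp merged, the counts were 15 of 28, 1 of 39 and 17 of 208.

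The 14 wide and weak peaks lay in few places. Between 17670565 and 18034258 there were 4, with −log10 q values from 3.18 to 3.80 and widths from 5755 to 10064 bp. A pair lay between 33880775 and 33901998, of 9463 and 11076 bp. Between 35682306 and 35717602 there were 3, and between 36748351 and 36921843 there were 4, among them the widest interior peak of the chromosome, 12863 bp long with a −log10 q of 4.50. The last lay at 56726294 to 56732619, beside the strong peak at 56733011. All 14 had a score at the cap of 1000, as did the other 20 interior peaks of 5 kb or more on both chromosomes. Together they spanned 113.5 kb, or 8.98% of the interior sequence covered by peaks. Leaving out the bins from 35 to 37 Mb left 7 weak peaks among 11 wide ones (63.6%).

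**Figure D4:**
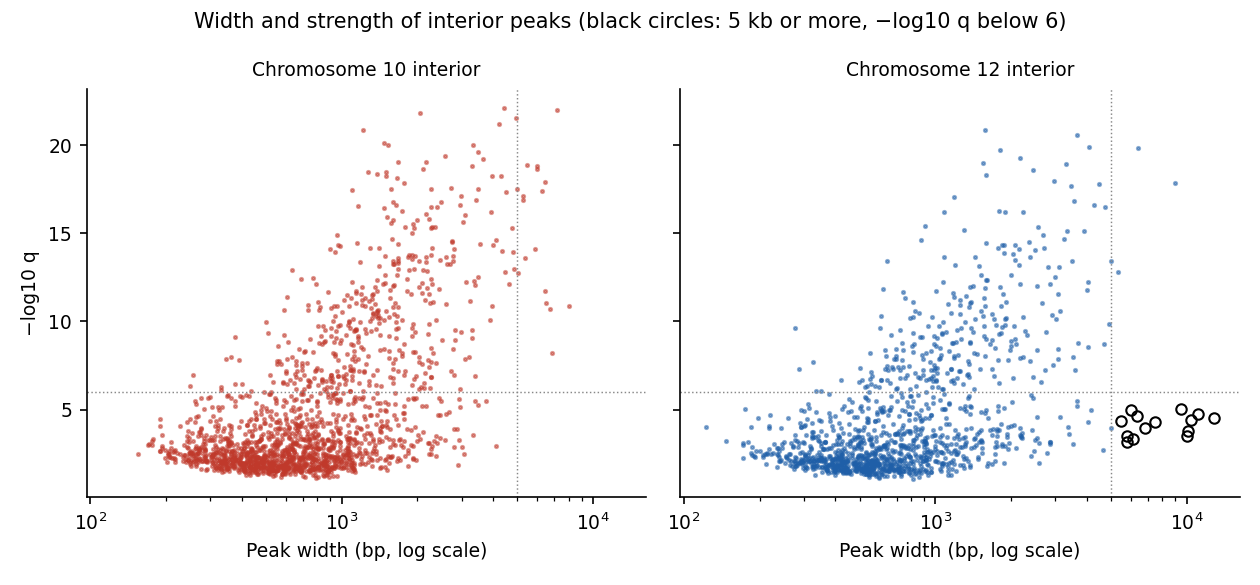
Width in bp (log scale) and −log10 q of each interior peak of chromosome 10 (left) and chromosome 12 (right), with dotted lines at 5 kb and at a −log10 q of 6. Black circles mark the 14 peaks of 5 kb or more with a −log10 q under 6, which lie on chromosome 12, while all 16 wide peaks of chromosome 10 lie above the line.

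The bins from 35 to 37 Mb of chromosome 12 held the longest stretches of closely packed peaks on the 2 chromosomes. They held 124 peaks over 189.4 kb, which was 15.0% of all interior sequence covered by peaks on that chromosome. From 35675967 to 35721952, 13 peaks with gaps of no more than 500 bp between them covered 97.1% of 46.0 kb. Joined over gaps of up to 2 kb, 26 peaks formed 1 cluster of 69.2 kb from 36745042 to 36814210, of which 86.1% was covered and whose highest −log10 q was 5.00. In contrast, the cluster with the most peaks in the interior of chromosome 10, at 54273798 to 54295899, had 15 peaks over 22.1 kb and reached 15.3. In the arms the largest clusters had 25 peaks over 37.9 kb on chromosome 10 and 27 over 35.5 kb on chromosome 12. Joined over 2 kb, none of the other 10 interiors had a cluster of more than 17 peaks. This order held at that distance alone. Over 5 kb the largest interior cluster had 28 peaks on chromosome 12 and 41 on chromosome 8. Over 1000 bp the largest had 13 on chromosome 12 and 17 among the other 10, and over 500 bp 13 and 14.

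Spacing differed between arms and interiors mainly in the long gaps. The median gap between neighbouring peaks, edge to edge, was 631.5 bp in the arms and 1117 bp in the interior of chromosome 10, and 572 and 1453.5 bp on chromosome 12. The upper quartile was 2421 bp in the arms and 10927 bp in the interior of chromosome 10, and 2395 and 18720.5 bp on chromosome 12, the highest interior value of the 12 chromosomes. Gaps over 20 kb made up 1.82% of the arm gaps and 19.1% of the interior gaps of chromosome 10. On chromosome 12 the shares were 2.40% and 24.0%, the latter again the highest of the 12, with 19.1% to 23.7% on the other 10. Gaps of 100 bp or less made up 23.4% and 18.4% on chromosome 10, and 25.2% and 18.1% on chromosome 12. Longer gaps follow in part from the lower density by which the interior was defined. Arm minus interior of the median gap was -485.5 bp on chromosome 10 and -881.5 bp on chromosome 12. It grew to -1256.5 and -1975 bp without peaks of a q above 0.01, and to -1026 and -2359 bp after merging within 100 bp.

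**Figure D5:**
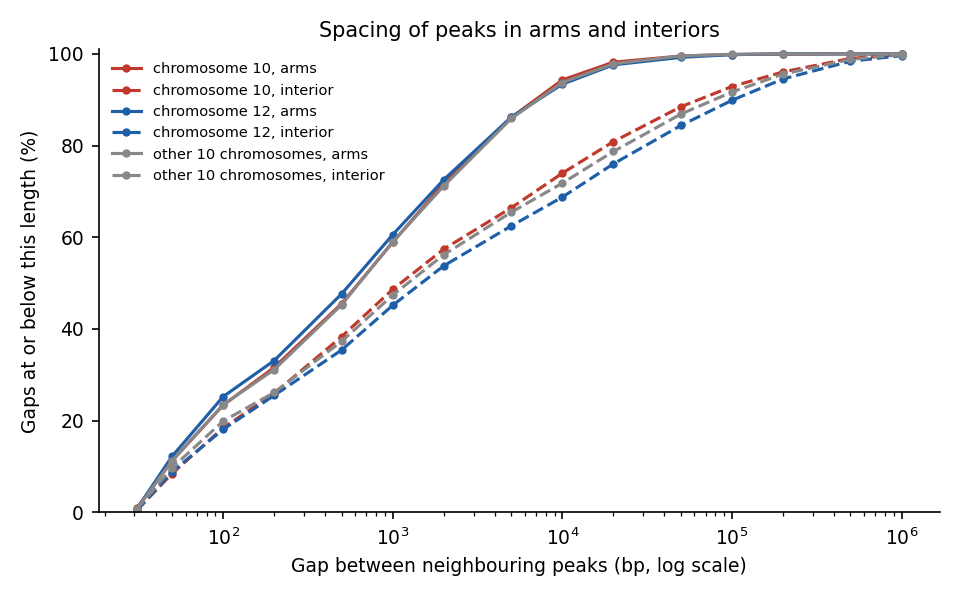
Percent of gaps between neighbouring peaks at or below a given length in bp (log scale), for arms (solid) and interiors (dashed) of chromosome 10, chromosome 12 and the other 10 chromosomes. The arm curves lie close together, and among the interiors a gap was at or below 10 kb in 68.8% of cases on chromosome 12, 74.0% on chromosome 10 and 71.8% on the others.

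Even in the interiors most peaks, as listed and without merging, had a close neighbour. The shortest gap was 31 bp, and 18.4% and 18.1% of the interior gaps of chromosomes 10 and 12 were 100 bp or less. Some neighbours may therefore be parts of 1 open stretch. A neighbour within 2 kb was present for 91.0% of arm and 81.2% of interior peaks on chromosome 10, and for 91.4% and 76.1% on chromosome 12. The interior share of chromosome 12 was the lowest of the 12 chromosomes, the others running from 77.4% to 82.2%. Such shares, and the number of clusters per Mb, follow in part from peak density. Joined over 2 kb, the interior of chromosome 10 held 724 clusters, or 14.5 per Mb, with a mean of 2.35 peaks. That of chromosome 12 held 575, or 11.5 per Mb, with a mean of 2.16 peaks. The arms had 72.6 and 68.6 clusters per Mb with means of 3.54 and 3.64 peaks. Inside clusters the median gap was 247 bp in the interior and 280 bp in the arms of chromosome 10, and 240 and 251.5 bp on chromosome 12. The median distance between clusters was 15583 bp in the interior of chromosome 10 and 21779 bp in that of chromosome 12, against 4884 and 5078 bp in their arms. Gaps inside clusters cannot exceed the joining distance, which limits how far these medians can differ. With joining over 5 kb, a distance added after the values were seen, they were 341 bp in the interior and 440 bp in the arms of chromosome 10, and 373 and 398 bp on chromosome 12.

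Lone peaks, more than 20 kb from any other, numbered 76 in the interior of chromosome 10 (4.47% of its peaks) and 89 in that of chromosome 12 (7.16%). In the arms there were 4 and 8. The other 10 interiors had shares from 3.85% to 7.36%, and the highest was that of chromosome 1. The longest stretch without a peak ran from 15462735 to 17195387 on chromosome 10, or 1.73 Mb, and another of 1.55 Mb ran from 33997128 to 35548050. The longest of chromosome 12 ran from 16164894 to 17588904, or 1.42 Mb, and the next from 40251757 to 41439174, or 1.19 Mb. The longest interior stretches of the other 10 chromosomes were between 0.988 and 2.24 Mb. Compared with chromosome 10, chromosome 12 thus had fewer interior peaks that lay further apart, although its longest empty stretches were shorter. Wider spacing follows in part from the lower density and is not a separate trait. The interiors nearest to it in density were those of chromosome 4 (24.8 per Mb) and chromosome 1 (26.3 per Mb). They had 4.91% and 7.36% lone peaks, and a neighbour within 2 kb for 77.4% and 78.2% of peaks. In the arms the longest empty stretch was 340.0 kb on chromosome 10, from 55186715 to 55526760, and 154.5 kb on chromosome 12, from 6032187 to 6186682.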

How the data were processed

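The 6 samples were placed in 1 group from their titles. Per the submitters' processing notes, Trimmomatic, BWA, Picard, SAMtools, bedtools and Genrich 0.6 were used, with no roles or order given. The authors deposited a single peak list for the replicates together. Its name gives Genrich with settings q 0.5 and g 30, and its chromosome names give build SL4.0. The largest q among peaks of these chromosomes was 0.0857. The deposited peak score is capped at 1000, and the −log10 of a q-value deposited in each peak's name is taken as it stands. How organelle, duplicate and multiply placed reads were treated is not given in the sources used here.

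Positions are 1-based, and midpoints assign peaks to bins. Gaps are counted between peaks of 1 part. Intervals are 95% exact Poisson intervals for densities, binomial order-statistic intervals for medians and exact Clopper-Pearson intervals for shares. The search for the interior was tested on simulated Poisson counts with sharp edges, unlike the graded edges and uneven bins seen here. Merging and gaps were checked on a small made example, and the coverage of the intervals was not tested. No hypothesis was tested. The chromosomes, the parts, the limits and the peaks named (the 3 strongest and the widest in the arms and in the interior of each chromosome, the 3 richest and the poorest interior bins at least 5 Mb from an edge and the 2 longest gaps) were chosen with earlier results of these data known. The largest clusters and the wide, weak peaks were picked after their values were seen. Genes and sequence were not analysed, since the RefSeq table at hand is of a different assembly. Computations used scipy 1.17.1, pandas 2.3.3 and numpy 2.4.6 under Python 3.11.15, and figures matplotlib 3.10.9.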

Additional observations from a re-analysis of the deposited data

Results flagged for a closer look

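Sequence not placed on a chromosome lay outside all comparisons and held 521 peaks.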

How the results depend on the processing

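A value was taken as moved when it changed by more than its 95% counting interval allows, a share of span when it changed by over 1 bin, and a rank when it changed at all. A q at or below 0.05 moved none of 14 values, but it left out only 89 peaks of these chromosomes (0.82%), so it could move little.

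With 500 kb bins the arm density of chromosome 10 became 269.4 peaks per Mb, and with the mean of that chromosome itself 245.9.

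With a q at or below 0.01, arm density was 214.3 (chromosome 10) and 205.2 (chromosome 12) and interior density 27.1 and 18.8. The difference in median gap was -1256.5 and -1975 bp, that in neighbour share 12.4 points on chromosome 10, and that in median width reversed to 7.5 bp on chromosome 10. Interior density ranked 12 from the lowest on chromosome 10 and 1 on chromosome 12.

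With peaks within 100 bp merged, arm density was 227.2 and 186.8, interior density 30.5 and 20.4, and the interior of chromosome 10 grew to 81.8% of its span. That chromosome then ranked 12 from the lowest in arm and in interior density. Differences became 0.72 and 0.80 in median −log10 q, -1026 and -2359 bp in median gap, 12.5 and 18.5 points in neighbour share, and 51.5 (reversed) and 135.5 bp in median width. The weak share of wide interior peaks of chromosome 12 became 53.6%.

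Cutting each chromosome into 3 equal stretches and taking the middle one as interior gave a width difference of -70 bp on chromosome 10. Added after the data were seen were a width of 3 kb, with weak shares of 11.7% and 44.4%, and leaving out 5 Mb at the interior edges, which raised the difference in −log10 q on chromosome 10 to 0.65. Leaving out 35 to 37 Mb, which lowered the innermost band of chromosome 12 to 16.5 peaks per Mb and its second 25 Mb of interior to 26.2, was added too. So were the limits of 5 and 10 on −log10 q, merging for the weak share, other joining distances, and all ranks but those by overall density. The causes were not tested. Of 107 alternative values, 73 stayed within their interval, 32 moved and 2 reversed. The ranks of both chromosomes in overall density and in median −log10 q were the same in each alternative run for them. Both kinds of rank depend in part on the share of peaks or span in the interior. Replicates could not be left out and no paired analysis was possible because the list holds 1 value for all 6. Depth is unknown, so a stretch without a peak is a stretch without a call.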
